A study of Rattus norvegicus with 9 samples.

Results

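The genes described here are the nuclear-encoded subunits of oxidative phosphorylation, taken from the gene table by name: every symbol that begins with Nduf, Uqcr or Atp5, the symbols Cox4 to Cox8 followed by a letter or i, and Sdha, Sdhb, Sdhc, Sdhd and Cyc1. The rule found 94 of the 20194 genes listed. They were grouped by complex: 36 belonged to complex I, 8 were complex I assembly factors (Ndufaf1 to Ndufaf8), 4 belonged to complex II, 9 to complex III, 20 to complex IV and 17 to ATP synthase. Ndufa4 and its paralogue Ndufa4l2 were counted with complex IV, where Ndufa4 is now placed. The rule also takes in a few genes that are not subunits, namely the assembly factors, the ATP synthase inhibitor Atp5if1, Atp5s, the paralogue Ndufa10l1, and Cox7a2l and Cox7a2l2. Without these, 81 members remained, of which 78 were tested.

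The RNA of dorsal root ganglia (DRG) of male Sprague Dawley rats aged 8 to 10 weeks was sequenced in 3 sham, 3 SNI and 3 SNI + G15 libraries. SNI, spared nerve injury, is a model of neuropathic pain in which branches of the sciatic nerve are cut and one is spared, and G15 is an antagonist of the G protein-coupled oestrogen receptor GPER. The sham group had sham surgery, the SNI group had the injury, and both are labelled as the controls for G15. The SNI + G15 group had the injury and G15, given through an intrathecal catheter placed on day 5 at 1.8 μg/μl in 1 μl. Drugs were given for 24 h in DMSO, at 2% in the sample labels and 1% in the study's methods. The labels list the 2% DMSO, the 24 h and the day 5 catheter for all 3 groups alike, sham and SNI included. The methods give 3 rats per group for sequencing and a supplement gives 6, so it is not known whether a library is 1 rat or a pool, and p-values measure the spread between these libraries only.

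Oxidative phosphorylation turns the energy of food into ATP in the inner mitochondrial membrane. Complexes I and II pass electrons from NADH and succinate to ubiquinone, complex III passes them on to cytochrome c, complex IV hands them to oxygen, and complexes I, III and IV pump protons that drive ATP synthase. Large sensory neurons, with long axons to supply, depend heavily on this pathway. A subset of subunits is encoded in mitochondrial DNA; of 13 such genes searched for, 0 were in the gene table, and they are not analysed here.

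Library totals lay between 18484557 and 18756736 estimated reads, so depth was alike in all 9 libraries. Levels are given as FPKM (fragments per kilobase of transcript, scaled to library size), and tests were made on the estimated counts with edgeR over the 14305 genes that reached 1 FPKM in any of the 9 libraries. A call means an adjusted p below 0.05 over all of those genes. The 10 neuronal markers examined were all present, with a summed level of 16920 to 17300 FPKM in sham, 14910 to 15310 in the SNI libraries and 15090 to 16020 in those with G15. Summed Schwann cell markers (8 genes) were at 5378 to 5502 FPKM in sham, 3083 to 3145 in the SNI libraries and 3297 to 3440 in those with G15, and macrophage markers (8 genes) at 123 to 133 FPKM in sham, 278 to 298 in the SNI libraries and 299 to 327 in those with G15. SNI + G15 replicate 3 stood apart in that transcripts under 600 bases were higher in it than in every other library, as described below. Counts of members called in the main fit are also given without it. Values by length, with the length offset and for ribosomal genes are given only with it.

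Of the 94 members, 91 passed the FPKM filter, and 77 of the 91 lay above the 75th percentile of all tested genes in sham. The most abundant was Cox6a1, a structural subunit of complex IV, with 973 ± 71.2 FPKM (SD, n = 3). Atp5f1b, the catalytic β subunit of ATP synthase, followed with 721 ± 26.7 FPKM (SD, n = 3), and Cox8a with 594 ± 50.9 (SD, n = 3). The 3 members below the filter were the muscle-type isoforms Cox6a2 and Cox8b and the testis-type Cox7b2, whose highest values in any library were 0.97, 0.75 and 0.10 FPKM. Summed FPKM over all members was 15230, 17430 and 15900 in sham, 15240, 14840 and 14020 in SNI, and 15770, 16290 and 18480 in SNI + G15. As a share of all FPKM in a library this was 3.20, 3.51 and 3.28% in sham, 3.08, 3.03 and 2.89% in SNI, and 3.10, 3.17 and 3.46% in SNI + G15. The 3 SNI shares lay below all 6 others, though narrowly for SNI replicate 1 (3.08%) against SNI + G15 replicate 1 (3.10%). These sums are not adjusted for the trend with transcript length described below. Sham replicate 2 had the highest sham sum in every complex, and SNI + G15 replicate 3 had the highest or joint highest sum of its group in each.

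**Figure D1:**
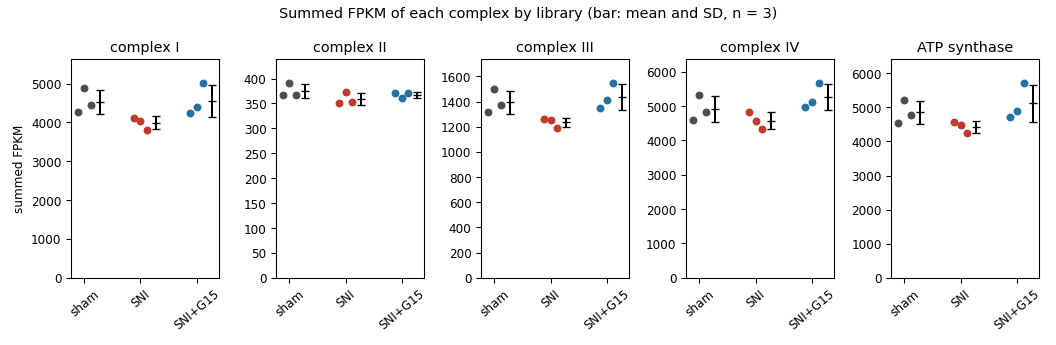
Summed FPKM (vertical axes, from 0) of the genes of each complex in the 3 sham, 3 SNI and 3 SNI + G15 libraries, one point per library, with the mean and SD of each group as a bar. Complex III shows the SNI libraries (1191 to 1258) below all sham libraries (1314 to 1497), while the complex II, IV and ATP synthase sums of SNI and sham overlap.

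Between SNI and sham, the question was whether nerve injury changed these genes. Of the 91 tested members, 52 fell and 0 rose in SNI (edgeR, adjusted p below 0.05), where 23.0% of all tested genes fell and 24.0% rose. The median log2 fold change was -0.20 over the members and 0.0010 over all tested genes. Among the members called, Ndufa10l1 was the only 1 that changed by more than 0.5 on the log2 scale. DESeq2 called 50 lower and 0 higher. In bulk tissue, fewer cells of a type and less RNA per cell cannot be told apart. The neuronal and Schwann cell marker sums given above were lower, and the macrophage sum higher, in every SNI library than in every sham library. Of the 10 neuronal markers 5 were called lower, the neurofilaments Nefl, Nefm and Nefh among them, and 3 higher. Log2 fold changes of the 10 ran from -0.77 to 0.42. Of the 8 Schwann cell markers 5 were called lower and 0 higher. Among 5 satellite glia markers 1 was called higher, Fabp7 (log2 fold change 0.45), and 1 lower, Apoe (-0.17). Their sums overlapped between sham (4012 to 4387 FPKM) and SNI (3843 to 4031). Of the 8 macrophage markers 7 were called higher, and erythroid markers (5 genes) summed to 96.8 to 100.5 FPKM in sham, 324 to 331 in the SNI libraries and 193 to 227 in those with G15. The part of these shifts in the fall was not tested.

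**Figure D2:**
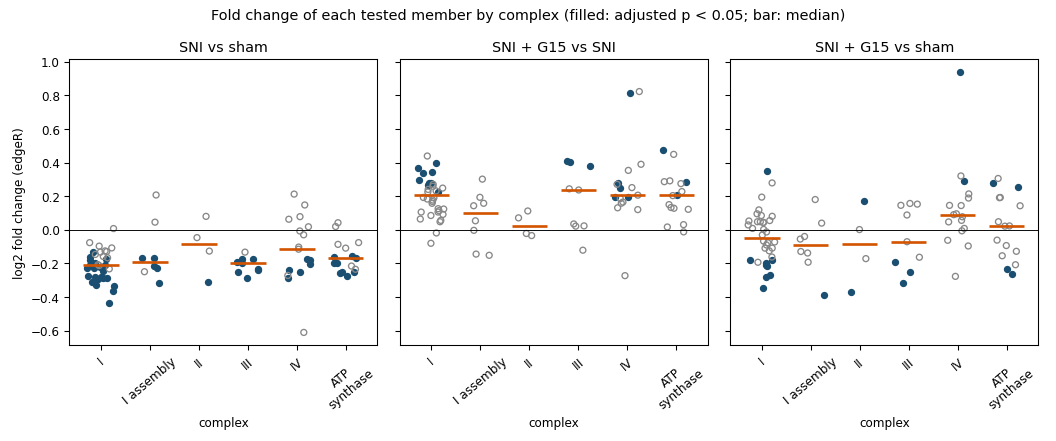
Log2 fold change (vertical axis) of each tested member in 3 comparisons, grouped by complex, with filled points for an adjusted p below 0.05 and a bar at the median of all tested members of the complex. Ndufa10l1 and Atp5f1, which were listed at 0 in at least 1 library, are left out of the points. In SNI against sham the called points all lie below 0, and in SNI + G15 against SNI they all lie above 0.

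In complex I, which takes electrons from NADH, 23 of 36 genes fell in SNI, where 23.0% of all tested genes did. A negative fold change was seen in 35 of the 36, with a median of -0.21. Ndufs3, a core subunit of the arm that carries electrons towards ubiquinone, was at 75.02, 87.02 and 76.7 FPKM in the sham libraries, 58.4, 60.6 and 61.5 in SNI and 61.8, 62.9 and 77.3 in SNI + G15. All 3 SNI values lay below all sham values (log2 fold change -0.43, SE 0.056, adjusted p = 5.47e-06, edgeR), while SNI + G15 replicate 3 alone reached the sham range. Ndufb8, an accessory membrane subunit, was at 229.9, 258 and 243 FPKM in the sham libraries, 207, 196 and 188 in SNI and 209, 226 and 260.1 in SNI + G15, and its SNI values also lay below sham (log2 fold change -0.33, SE 0.051, adjusted p = 3.42e-05, edgeR). Ndufs1, the largest core subunit, which holds iron-sulphur clusters, was at 70.9, 72.9 and 63.3 FPKM in the sham libraries, 57.2, 62.03 and 59.2 in SNI and 56.95, 54.6 and 55.6 in SNI + G15. Its SNI libraries lay below sham (log2 fold change -0.24, SE 0.051, adjusted p = 7.84e-04, edgeR) and its SNI + G15 libraries lay lower still.

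Ndufv1, the subunit that binds NADH and the flavin, was at 112, 124 and 126 FPKM in the sham libraries, 110.1, 107 and 103 in SNI and 106, 109 and 114 in SNI + G15, and fell in SNI (log2 fold change -0.21, SE 0.049, adjusted p = 0.00169, edgeR), the lowest sham value standing just above the highest SNI value. Its partner Ndufv2 fell by 0.37 on the log2 scale (adjusted p = 0.00156, edgeR). The core subunits Ndufs7 and Ndufs8 were also called lower, by 0.30 and 0.18 on the log2 scale. Among the accessory subunits, Ndufb2 had the only positive fold change of the complex (0.0072, adjusted p = 0.936, edgeR). Ndufv3 was the 1 member of the 52 whose mean FPKM went the other way from its counts. Its level was 131, 135 and 131 FPKM in the sham libraries, 138, 129 and 131 in SNI and 143, 144 and 155 in SNI + G15, overlapping between sham and SNI. Its counts gave a log2 fold change of -0.13 (adjusted p = 0.0125, edgeR). FPKM is scaled by transcript length and counts are not, and the source of the difference was not tested.

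Of the 8 complex I assembly factors, 5 fell and 0 rose, where 23.0% of all tested genes fell and 24.0% rose. Ndufaf3, which helps build the ubiquinone-binding module, was at 16.97, 17.6 and 17.3 FPKM in the sham libraries, 16.1, 14.9 and 14.3 in SNI and 16.5, 16.3 and 18.4 in SNI + G15, with the SNI values below sham (log2 fold change -0.23, SE 0.065, adjusted p = 0.00803, edgeR). That call is lost with DESeq2 (adjusted p = 0.054) and without SNI replicate 3 (adjusted p = 0.0509, edgeR). Ndufaf6 was at 7.93, 9.28 and 7.55 FPKM in the sham libraries, 6.61, 6.65 and 7.0 in SNI and 7.48, 8.67 and 8.59 in SNI + G15 (log2 fold change -0.32, SE 0.11, adjusted p = 0.021, edgeR), and its call is lost with DESeq2 (adjusted p = 0.12) and without SNI replicate 1, SNI replicate 2 or sham replicate 2 (adjusted p = 0.0621, 0.0628 and 0.111, edgeR). Ndufaf4 had a positive fold change of 0.21 that did not pass the test (adjusted p = 0.0712, edgeR).

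Complex II, succinate dehydrogenase, was split. Sdha, the flavoprotein that oxidises succinate, was at 87.3, 90.05 and 91.8 FPKM in the sham libraries, 74.1, 74.5 and 72.7 in SNI and 71.1, 69.2 and 73.6 in SNI + G15. The 6 injured libraries all lay below the 3 sham libraries, and the gene was called lower in SNI (log2 fold change -0.31, SE 0.04, adjusted p = 4.95e-06, edgeR). Sdhb, the iron-sulphur subunit, was at 139, 150.2 and 139 FPKM in the sham libraries, 137, 146 and 141 in SNI and 147, 148 and 145 in SNI + G15, and sham and SNI overlapped (log2 fold change -0.047, SE 0.046, adjusted p = 0.428, edgeR). The membrane anchors Sdhc and Sdhd had log2 fold changes of 0.08 and -0.13 (adjusted p = 0.193 and 0.13, edgeR). The difference between Sdha and the other subunits was not tested.

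In complex III, 8 of 9 genes were called lower, where 23.0% of all tested genes were. All 9 had negative fold changes, and the median was -0.20. Uqcrc1, a core protein, was at 147, 155 and 161 FPKM in the sham libraries, 129.6, 135 and 133 in SNI and 131, 133 and 135 in SNI + G15, with every SNI library below every sham library (log2 fold change -0.25, SE 0.043, adjusted p = 1.22e-04, edgeR). Cyc1, cytochrome c1, which hands electrons to cytochrome c, was at 137, 157 and 141 FPKM in the sham libraries, 130.04, 129 and 129 in SNI and 131, 134 and 125 in SNI + G15 (log2 fold change -0.19, SE 0.049, adjusted p = 0.00351, edgeR). Uqcrfs1, the Rieske iron-sulphur protein, was at 107, 115 and 103 FPKM in the sham libraries, 99.7, 99.1 and 94.9 in SNI and 93.9, 92.1 and 112 in SNI + G15 (log2 fold change -0.18, SE 0.049, adjusted p = 0.0066, edgeR). In all 3, the groups did not overlap between sham and SNI. Uqcr11 was the member not called, at a log2 fold change of -0.13 (adjusted p = 0.0504, edgeR).

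In complex IV, 6 of 17 tested genes were called lower, where 23.0% of all tested genes were. The median was -0.12, and differences between complexes were not tested. Cox5b, a nuclear subunit that binds zinc, was at 259, 284 and 276 FPKM in the sham libraries, 246, 244 and 219 in SNI and 248, 268 and 271 in SNI + G15 (log2 fold change -0.24, SE 0.052, adjusted p = 0.00109, edgeR). Cox6a1 was at 894, 1032 and 992 FPKM in the sham libraries, 869.6, 807 and 761 in SNI and 892, 953 and 1024 in SNI + G15 (log2 fold change -0.29, SE 0.063, adjusted p = 0.0038, edgeR). Ndufa4 was at 287, 307 and 286 FPKM in the sham libraries, 271, 266 and 257 in SNI and 304, 286 and 309 in SNI + G15 (log2 fold change -0.18, SE 0.043, adjusted p = 0.00238, edgeR). In each of the 3 the SNI libraries lay below the sham libraries. Cox7b, Cox7c and Cox7a2l, a gene tied to supercomplex assembly, completed the calls, with log2 fold changes of -0.20, -0.25 and -0.18.

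Several abundant subunits of complex IV did not pass the test. Cox4i1, the largest nuclear subunit, was at 549.7, 630.3 and 581 FPKM in the sham libraries, 585, 545 and 529 in SNI and 579, 594 and 695 in SNI + G15 (log2 fold change -0.12, SE 0.053, adjusted p = 0.0854, edgeR). Cox5a was at 413, 476 and 425 FPKM in the sham libraries, 515, 461 and 439 in SNI and 478, 501 and 585 in SNI + G15, its SNI values overlapping sham (log2 fold change 0.078, SE 0.074, adjusted p = 0.426, edgeR), although with a length offset, explained below, it was called higher in SNI (log2 fold change 0.12, SE 0.037, adjusted p = 0.0133, edgeR). Cox8a, Cox6b1 and Cox6c had log2 fold changes of -0.0073, -0.03 and -0.10, none of them called.

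Where 23.0% of all tested genes fell in SNI, 9 of 17 genes of ATP synthase did, with a median of -0.17. Both catalytic-head subunits were among them: Atp5f1a, the α subunit, was at 317, 329 and 317 FPKM in the sham libraries, 279, 278 and 267 in SNI and 267, 264 and 294 in SNI + G15 (log2 fold change -0.25, SE 0.037, adjusted p = 1.91e-05, edgeR). Atp5f1b was at 699.7, 751 and 712 FPKM in the sham libraries, 660.5, 638 and 624 in SNI and 617, 616 and 654 in SNI + G15 (log2 fold change -0.20, SE 0.039, adjusted p = 3.85e-04, edgeR). All sham values of both genes lay above all values of the injured groups. Atp5f1c, the γ subunit of the rotor, was at 180.4, 192 and 173 FPKM in the sham libraries, 149, 167 and 151 in SNI and 164, 156 and 179 in SNI + G15 (log2 fold change -0.25, SE 0.048, adjusted p = 2.75e-04, edgeR). Atp5if1, which inhibits ATP hydrolysis by the enzyme, had a log2 fold change of 0.042 and was not called (adjusted p = 0.498, edgeR). Atp5f1 (gene 171375), the symbol given for the b subunit of the stator, was listed at 0 in 8 of the 9 libraries and at 20.9 FPKM in SNI + G15 replicate 3 alone, so no fold change is given for it.

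The promoters of these genes were read because so many members moved together. The transcription factors NRF1 and YY1 are known regulators of respiratory chain genes. RefSeq (GRCr8) promoters, from 250 bases before to 50 after the start of each gene, matched 81 of the 94 members and 11140 tested genes. An exact match to the NRF1 letters (GCGCA, then any base, then GCGC), on either strand, stood in 15 of the 81, or 18.5%, against 9.46% of all tested genes. The YY1 letters AAGATGGC stood in 16, or 19.8%, against 5.22%, and the ETS letters CCGGAAGT in 8, or 9.88%, against 7.61%. NRF1 and YY1 letters occurred together in 3 members. Of the 15 members with the NRF1 letters 8 fell in SNI, and of the 66 without them 36 did. For YY1 it was 7 of 16 and 37 of 65, and for ETS 7 of 8 and 37 of 73. These differences were not tested. The windows below run from 120 bases before the start to 30 after it, 5′ to 3′ on the gene's strand, for the genes called lower with the smallest adjusted p that hold each motif, with NRF1 and YY1 letters in capitals. They lie at chr1:30764433-30764582 (plus strand, Sdha, 3 NRF1 matches), chr8:118468103-118468252 (plus strand, Uqcrc1, 1 match to each) and chr1:253362907-253363056 (minus strand, Ndufb8, 1 YY1 match). A match describes the letters and not a bound site.
Sdha: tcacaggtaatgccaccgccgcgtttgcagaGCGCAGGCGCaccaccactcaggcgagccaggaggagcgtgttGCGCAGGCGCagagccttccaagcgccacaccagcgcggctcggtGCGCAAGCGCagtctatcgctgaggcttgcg
Uqcrc1: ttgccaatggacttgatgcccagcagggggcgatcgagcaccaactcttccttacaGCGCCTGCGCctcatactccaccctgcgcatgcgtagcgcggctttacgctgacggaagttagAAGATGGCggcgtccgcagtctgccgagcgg
Ndufb8: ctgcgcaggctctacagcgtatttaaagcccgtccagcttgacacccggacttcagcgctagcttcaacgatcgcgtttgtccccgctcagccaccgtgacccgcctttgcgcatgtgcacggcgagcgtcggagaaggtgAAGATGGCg

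Transcript length mattered for what follows. Effective length, computed from counts over FPKM, had a median of 626 bases over the members and 2439 over all tested genes, so the members are short. In each library, the log2 level of the other tested genes relative to the mean of 9 libraries changed with length by 0.064, -0.0059 and 0.037 per doubling in sham, 0.011, 0.022 and 0.044 in SNI, and -0.026, -0.040 and -0.11 in SNI + G15. The 3 SNI + G15 libraries thus had the 3 lowest slopes, with short transcripts higher relative to long ones, and replicate 3 most of all. In transcripts under 600 bases that are not members, the median was 0.090, 0.14 and 0.32 above the mean in SNI + G15, and below it in all 6 other libraries. Whether this arose in library preparation or in the tissue was not tested. Each member was therefore also set against the median of the 500 tested non-members nearest to it in length, and the test was repeated with an offset for length.

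**Figure D3:**
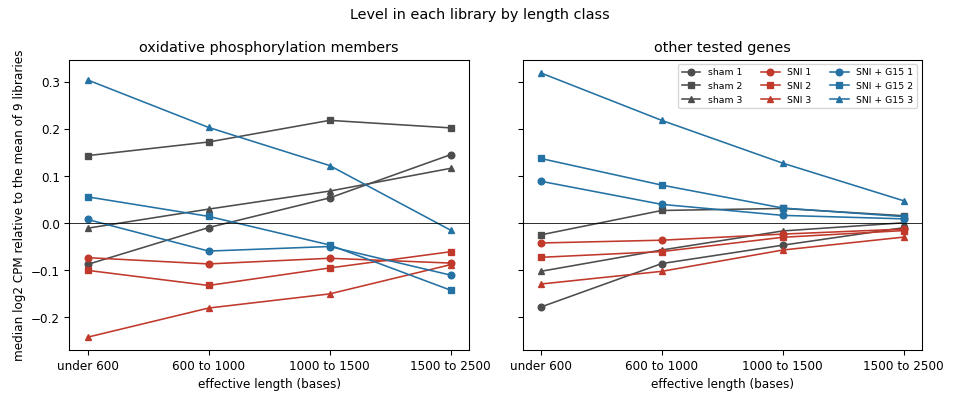
Median log2 CPM relative to the mean of 9 libraries (vertical axis) in 4 classes of effective length in bases (horizontal axis), for the members (left) and the other tested genes (right), one line per library. SNI + G15 replicate 3 is the highest line below 600 bases in both panels (0.31 and 0.32), and in the members between 1500 and 2500 bases the 3 sham libraries (0.12 to 0.20) lie above the 6 injured ones (-0.14 to -0.014).

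Against genes of like length, the median fold change in SNI was -0.17, where it was -0.20 before, and 78 of 91 members lay below 0. With the length offset 56 members were called lower, where 24.0% of all tested genes were, and 3 were called higher, where 25.2% were; the 3 were Cox5a, Sdhc and Ndufaf4, named after their values were seen. By length class and without the offset, 16 of 40 members under 600 bases and 9.88% of the other genes were called lower. From 600 to 1000 bases it was 11 of 20 against 19.8%, from 1000 to 1500 bases 15 of 19 against 22.2%, and from 1500 to 2500 bases 10 of 12 against 24.6%. Across 89 members, leaving out the 2 listed at 0 in a library, the fold change had a Spearman rho of -0.18 and a Pearson r of -0.084 with length. After the length offset the rho was -0.20. These points share their 6 libraries, and the members are not independent.

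Between SNI + G15 and SNI, the question was what blocking GPER changed in injured DRG. Of 91 tested members, 22 rose and 0 fell (edgeR), where 8.62% of all tested genes rose and 7.93% fell. The 22 comprised 11 genes of complex I, 3 of complex III, 5 of complex IV and 3 of ATP synthase, and the median was 0.19 over all members. Of the 22, 21 had an effective length under 1000 bases. The count rested on single libraries: it was 7 without SNI replicate 2, 8 without SNI replicate 3, 35 without SNI + G15 replicate 1 and 27 without SNI + G15 replicate 3. Summed cytosolic ribosomal proteins, another group of short genes, were at 22620 to 26090 FPKM in sham, 24680 to 26450 in the SNI libraries and 32160 to 37520 in those with G15.

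Uqcr10, a small subunit of complex III, was at 129.7, 161 and 137 FPKM in the sham libraries, 123, 128 and 119 in SNI and 161, 159.7 and 168 in SNI + G15. All SNI + G15 values lay above all SNI values, by a log2 fold change of 0.41 (SE 0.052, adjusted p = 3.42e-04, edgeR); its counts were not whole in 9 libraries, as happens where reads are shared between similar sequences. Uqcrq, another small subunit of complex III, was at 182, 209 and 215 FPKM in the sham libraries, 185, 186 and 171 in SNI and 219, 232 and 247 in SNI + G15 (log2 fold change 0.38, SE 0.059, adjusted p = 0.00141, edgeR). Atp5f1e, the small ε subunit of ATP synthase and among the shortest of the set at 342 bases, was at 301, 363 and 328 FPKM in the sham libraries, 312, 291 and 279 in SNI and 364, 396 and 453 in SNI + G15 (log2 fold change 0.47, SE 0.083, adjusted p = 0.00483, edgeR). Ndufb2, an accessory subunit of complex I, was at 106, 120.3 and 109.9 FPKM in the sham libraries, 122, 115 and 108 in SNI and 141, 138 and 161 in SNI + G15 (log2 fold change 0.37, SE 0.072, adjusted p = 0.00584, edgeR). In all 4 the SNI + G15 libraries stood above the SNI libraries.

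In complex IV, Cox7b was at 258, 307 and 263 FPKM in the sham libraries, 241, 248 and 245 in SNI and 288, 283 and 313 in SNI + G15 (log2 fold change 0.28, SE 0.052, adjusted p = 0.00405, edgeR). Cox6a1, Ndufa4 and Cox6b1 rose by log2 fold changes of 0.25, 0.19 and 0.20. All 3 calls were lost without SNI replicate 2 (adjusted p = 0.10, 0.0748 and 0.0941, edgeR) and without SNI replicate 3 (adjusted p = 0.117, 0.101 and 0.121, edgeR). That of Cox6a1 was also lost without SNI + G15 replicate 2 or 3 (adjusted p = 0.0643 and 0.0928, edgeR). Of the longer members described above these showed no call: Sdha stood at -0.035, Ndufs1 at -0.081, Atp5f1a at 0.016, Atp5f1b at -0.013, Uqcrc1 at 0.021 and Cyc1 at 0.023, each on the log2 scale.

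Set against genes of like length, the members no longer stood above 0: the median length-relative fold change was -0.014, with 53 of 91 members below 0. Under 600 bases 13 of 40 members and 28.4% of 415 other genes were called higher, with medians of 0.27 and 0.30. From 600 to 1000 bases it was 8 of 20 members and 23.7% of 1003 others, with medians of 0.19 and 0.20. Of the 12 members between 1500 and 2500 bases 0 were called, and their median was -0.016. Across the same 89 members the fold change had a Spearman rho of -0.75 and a Pearson r of -0.66 with length, and a rho of -0.075 after the length offset. With that offset 2 members were called higher, Ndufa10l1 and Ndufa4l2, and 1 lower, Uqcrc2, where 6.53% of all tested genes were higher and 6.79% lower. The median over members was then -0.033. Cox7b, Cox6a1, Ndufa4 and Cox6b1 turned to -0.04, -0.026, -0.0032 and -0.095, none of them called.

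**Figure D4:**
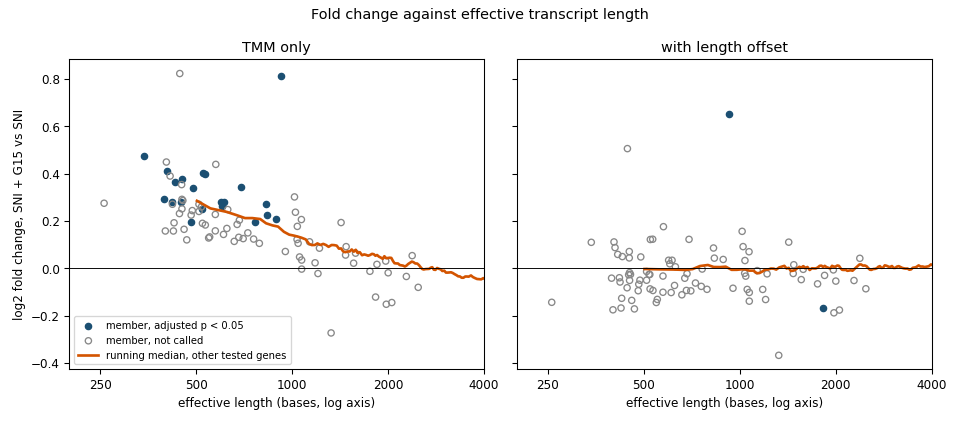
Log2 fold change of SNI + G15 against SNI (vertical axes) by effective length in bases (log axis) for each tested member, with filled points for an adjusted p below 0.05 and a line for the running median of the other tested genes, before (left) and after (right) the length offset. Ndufa10l1 and Atp5f1 are left out. On the left members and line fall together from short to long transcripts, and on the right the called points are Ndufa4l2 (0.65) and Uqcrc2 (-0.17).

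Uqcrc2, a core protein of complex III, was at 91.2, 93.97 and 87.5 FPKM in the sham libraries, 85.01, 83.1 and 78.5 in SNI and 79.1, 72.7 and 72.9 in SNI + G15. The SNI + G15 values spanned a range that reached just above the lowest SNI value, and the gene was called lower with the offset (log2 fold change -0.17, SE 0.046, adjusted p = 0.0284, edgeR) but not without it (log2 fold change -0.12, SE 0.05, adjusted p = 0.116, edgeR). Its counts were not whole in 9 libraries.

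Comparing SNI + G15 with sham asks which differences from uninjured DRG were present after G15. The sham libraries are those used above, so the 2 comparisons are not independent. Of 91 tested members 16 fell and 6 rose (edgeR), where 22.4% of all tested genes fell and 21.7% rose, and the median was 0.0020. The 16 were 9 genes of complex I, 1 assembly factor, Sdha, 3 genes of complex III and 2 of ATP synthase. Sdha was called (log2 fold change -0.37, SE 0.055, adjusted p = 8.09e-05, edgeR), as were Ndufs1 (log2 fold change -0.35, SE 0.061, adjusted p = 3.11e-04, edgeR) and Atp5f1a (log2 fold change -0.26, SE 0.058, adjusted p = 0.00213, edgeR). Uqcrc2 (log2 fold change -0.32, SE 0.056, adjusted p = 3.41e-04, edgeR) and Uqcrc1 (log2 fold change -0.25, SE 0.056, adjusted p = 0.0022, edgeR) were called in complex III. For all 5 genes, every SNI + G15 library lay below every sham library.

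Atp5f1b, Cyc1 and Ndufv1 fell as well, by 0.24, 0.19 and 0.18 on the log2 scale. The call of Cyc1 was lost without sham replicate 2 or SNI + G15 replicate 1 (adjusted p = 0.104 and 0.0603, edgeR). That of Ndufv1 was lost without sham replicate 2 or 3 or SNI + G15 replicate 1 or 2 (adjusted p = 0.106, 0.137, 0.146 and 0.0883, edgeR). Ndufaf1, an assembly factor whose counts were not whole in 9 libraries, was at 13.2, 12.8 and 11.9 FPKM in the sham libraries, 10.2, 12.5 and 10.7 in SNI and 10.03, 10.1 and 9.63 in SNI + G15 (log2 fold change -0.39, SE 0.073, adjusted p = 5.36e-04, edgeR). The 6 that rose were Ndufb2, Sdhc, Cox7a2, Ndufa4l2, Atp5mc2 and Atp5f1e, at 0.35, 0.17, 0.29, 0.94, 0.28 and 0.25. Sdhc was at 77.3, 81.5 and 74.97 FPKM in the sham libraries, 80.1, 88.2 and 83.8 in SNI and 91.6, 88.6 and 90.03 in SNI + G15. Atp5f1e turned to -0.074 with the length offset, and of the 6 Ndufa4l2 alone remained called. Without the offset, the call of Sdhc was lost without sham replicate 1 or 3 or SNI + G15 replicate 1 (adjusted p = 0.0776, 0.0948 and 0.0637, edgeR). That of Atp5f1e was lost without sham replicate 1 or 3 or SNI + G15 replicate 2 or 3 (adjusted p = 0.162, 0.125, 0.0744 and 0.0851, edgeR).

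The members called lower in this comparison were mostly long for this set, whose median length was 626 bases against 2439 over all tested genes. Between 1500 and 2500 bases 9 of 12 members were called lower against 20.6% of other genes, and under 600 bases 0 of 40 members were, against 5.06%. The rho of fold change with length was -0.74, and -0.26 after the length offset. Relative to genes of like length the median was -0.18, with 80 of 91 members below 0. With the length offset 53 members were called lower and 1 higher, where 23.2% and 24.3% of all tested genes were. Without SNI + G15 replicate 3, 27 members were called lower with no offset, and without sham replicate 2, 9 were called lower and 10 higher.

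Paralogues and tissue-type isoforms were compared with their common partners. Ndufa10l1, a paralogue of the complex I subunit Ndufa10, was at 20.2, 22.1 and 22.6 FPKM in the sham libraries, 0.3, 0 and 0.2 in SNI and 4.49, 5.36 and 6.79 in SNI + G15. Its counts were 531 to 598 in the sham libraries, 7.87, 0 and 5.27 in SNI, and 119 to 181 in SNI + G15, and the 3 groups did not overlap. edgeR called it in each comparison, with fitted log2 fold changes of -7.03, 5.06 and -2.00 for SNI against sham, SNI + G15 against SNI and SNI + G15 against sham (adjusted p = 3.89e-08, 7.85e-04 and 9.34e-08). The first 2 of these fold changes depend on the prior count, since 1 SNI library is at 0. Neither gene had whole counts in 8 of the 9 libraries, so reads may be divided between them. Ndufa10 itself was at 112, 116 and 113 FPKM in the sham libraries, 97.8, 99.4 and 98.9 in SNI and 94.1, 95.3 and 100.3 in SNI + G15 (log2 fold change -0.23, SE 0.039, adjusted p = 9.85e-05, edgeR). The 2 together summed to 132, 138 and 135 FPKM in sham, 98.1, 99.4 and 99.1 in SNI, and 98.6, 101 and 107 in SNI + G15.

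Ndufa4l2, the hypoxia-inducible paralogue of Ndufa4, was at 1.58, 2.67 and 1.98 FPKM in the sham libraries, 2.39, 2.03 and 2.63 in SNI and 3.45, 4.92 and 3.92 in SNI + G15, with counts of 27 to 84. All SNI + G15 libraries lay above all others, against SNI (log2 fold change 0.81, SE 0.19, adjusted p = 0.0131, edgeR) and against sham (log2 fold change 0.94, SE 0.22, adjusted p = 0.00271, edgeR). With the length offset it was still called against SNI (log2 fold change 0.65, SE 0.19, adjusted p = 0.0374, edgeR), and without SNI replicate 2 or SNI + G15 replicate 2 it was not (adjusted p = 0.0658 and 0.0578, edgeR). As a percentage of Ndufa4 it ranged from 0.551 to 0.869 over the sham libraries, from 0.764 to 1.02 over the SNI libraries and from 1.14 to 1.72 with G15. Summed pericyte and smooth muscle markers (9 genes) were at 64.5 to 67.4 FPKM in sham, 70.1 to 78.2 in the SNI libraries and 97.8 to 103 in those with G15, with 5 of the 9 called higher in SNI + G15 than in SNI and none at 0 in all libraries of a group. Of 6 fibroblast markers all 6 were called higher in SNI + G15 than in SNI, and their sum was 467 to 477 FPKM in sham, 449.9 to 452 in the SNI libraries and 606 to 629.9 in those with G15. Endothelial markers (6 genes) summed to 51.7 to 56.5 FPKM in sham, 50.8 to 51.9 in the SNI libraries and 63.8 to 70.8 in those with G15, with 2 called higher and 1 lower against SNI. The part of those cells in the rise of Ndufa4l2 was not tested. In SNI + G15 against SNI, 8.62% of all tested genes were called higher and 7.93% lower. Of 9 tested genes of the hypoxia response, 0 were called higher and 1 lower against SNI, Vegfa, by 0.21 on the log2 scale. Against sham 1 was called higher, Adm (log2 fold change 0.68, adjusted p = 0.00542, edgeR), and 2 lower, where 21.7% and 22.4% of all tested genes were.

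The c-subunit of the ATP synthase ring is made from 3 genes that yield the same mature protein. Atp5mc3 was at 223, 253 and 238 FPKM in the sham libraries, 208, 214 and 189.6 in SNI and 205, 215 and 252 in SNI + G15 and fell in SNI (log2 fold change -0.26, SE 0.054, adjusted p = 8.48e-04, edgeR). Atp5mc1 was at 182, 212 and 201 FPKM in the sham libraries, 179, 188 and 176 in SNI and 167, 195 and 223 in SNI + G15 and also fell (log2 fold change -0.17, SE 0.055, adjusted p = 0.0193, edgeR), a call that was lost without sham replicate 2 or 3 or SNI replicate 1 or 3 (adjusted p = 0.0772, 0.0803, 0.0667 and 0.0755, edgeR). Atp5mc2 was at 141, 159 and 144 FPKM in the sham libraries, 151, 159 and 149 in SNI and 178, 184 and 191 in SNI + G15, with sham and SNI overlapping (log2 fold change 0.019, SE 0.051, adjusted p = 0.786, edgeR). As a share of the 3 genes' FPKM, Atp5mc2 made up 25.8, 25.5 and 24.7% in sham, 28.1, 28.4 and 28.9% in SNI, and 32.4, 31.0 and 28.6% in SNI + G15. Both injured groups lay above sham without overlap and overlapped each other; an exact permutation test of 3 against 3 libraries cannot give a two-sided p below 0.1. Atp5mc2 was called higher in SNI + G15 than in SNI (log2 fold change 0.28, SE 0.05, adjusted p = 0.00305, edgeR), but not with the length offset (log2 fold change 0.034, SE 0.045, adjusted p = 0.689, edgeR).

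**Figure D5:**
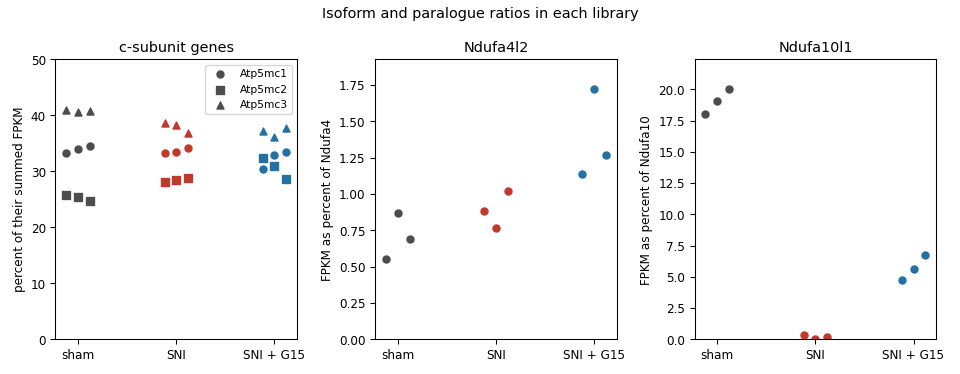
Percent of FPKM in each library (vertical axes, from 0) for the 3 c-subunit genes as shares of their sum, for Ndufa4l2 as percent of Ndufa4 and for Ndufa10l1 as percent of Ndufa10, one point per library. Atp5mc2 rises from at most 25.8% in the sham libraries to 28.1% or more in the injured ones, and Ndufa10l1 is highest in the 3 sham libraries, stays at or under 0.307% after injury alone and lies between 4.77 and 6.77% with G15.

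Tissue-type isoforms of complex IV were scarce. Cox4i2, the isoform known from lung and hypoxia, was at 2.39, 2.92 and 3.24 FPKM in the sham libraries, 3.88, 3.39 and 2.94 in SNI and 2.54, 4.41 and 4.02 in SNI + G15, or 0.435 to 0.742% of Cox4i1, and was called in none of the 3 comparisons. Cox7a1, the muscle isoform, was at 0.79, 1.08 and 0.48 FPKM in the sham libraries, 1.10, 0.85 and 0.76 in SNI and 0.76, 0.33 and 0.96 in SNI + G15, and it was not called in any comparison either. Cox6b2, the testis isoform, was at 3.66, 3.02 and 3.15 FPKM in the sham libraries, 3.08, 1.69 and 1.70 in SNI and 3.04, 3.17 and 5.28 in SNI + G15, with log2 fold changes of -0.61 after injury and 0.82 with G15 added, neither called (adjusted p = 0.0974 and 0.104, edgeR). Cox6a2, the muscle partner of Cox6a1 and below the filter, had counts of 2, 2 and 1 in sham, 7 in each SNI library, and 6, 8 and 8 in SNI + G15, so the injured groups lay above sham. In the fit over all genes with at least 1 count it was called higher in SNI than in sham (log2 fold change 1.96, SE 0.67, adjusted p = 0.020, edgeR) and in SNI + G15 than in sham (log2 fold change 2.01, SE 0.65, adjusted p = 0.0175, edgeR). With at most 2 reads in a sham library, the size of those fold changes depends on the prior count. Summed skeletal muscle markers (10 genes) were at 11.8 to 13.1 FPKM in sham, 11.5 to 11.8 in the SNI libraries and 12.4 to 14.3 in those with G15. Cox7a2, the common partner of Cox7a1, was at 129.5, 114 and 109 FPKM in the sham libraries, 139.9, 110.2 and 125 in SNI and 142, 154 and 147 in SNI + G15 and rose in SNI + G15 against sham (log2 fold change 0.29, SE 0.071, adjusted p = 0.00408, edgeR). Neither it nor Cox7a2l2 had whole counts in any library. The 2 summed to 239, 265 and 256 FPKM in sham, 244, 248 and 229 in SNI, and 279, 282 and 328 in SNI + G15.

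Other genes of the pathway were counted from lists, to be read against the 23.0% of all tested genes that fell and the 24.0% that rose in SNI, and the 8.62% that rose and 7.93% that fell in SNI + G15 against SNI. Of 12 tested genes of the TCA cycle, which supplies the electrons, 4 fell and 0 rose in SNI, among them Idh3g and Mdh2 by 0.28 and 0.22 on the log2 scale, and against SNI none was called after G15, while 2 were called lower with the length offset. Of 10 carriers and porins of the mitochondrial membranes, 6 fell in SNI, among them the phosphate carrier Slc25a3 and the ADP/ATP carrier Slc25a4, each by 0.15. Cycs, somatic cytochrome c, rose (log2 fold change 0.27, SE 0.054, adjusted p = 6.13e-04, edgeR), while Cyc1, which it meets in complex III, fell as above. Of 75 mitochondrial ribosomal proteins 25 fell and 2 rose in SNI, and 18 rose and 1 fell in SNI + G15 against SNI, where 1 rose and 2 fell with the length offset.

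Assembly factors outside the naming rule were counted in the same way. Of all tested genes 23.0% fell and 24.0% rose in SNI, and 8.62% rose and 7.93% fell in SNI + G15 against SNI. Of 6 for complex I 3 fell in SNI, of 4 for complex II 1, of 6 for complex III 2, of 21 for complex IV 2 and of 2 for ATP synthase 1, and none rose. The medians were -0.15 for complex I, -0.081 for complex II, -0.048 for complex III, -0.080 for complex IV and -0.25 for ATP synthase. Those that fell included Nubpl, which inserts iron-sulphur clusters into complex I, at -0.53 (adjusted p = 0.00501, edgeR), Lyrm7, which serves the Rieske protein, at -0.52 (adjusted p = 3.46e-06), Cmc1, a complex IV assembly factor, at -0.41 (adjusted p = 0.00588), and Atpaf1 at -0.39 (adjusted p = 2.40e-05). In SNI + G15 against SNI, 1 complex II, 1 complex III and 2 complex IV assembly factors rose; with the length offset 1 for complex IV rose and 1 fell, and 0 of the others were called.

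Of 14 regulators of mitochondrial biogenesis, 1 rose and 2 fell in SNI, where 24.0% of all tested genes rose and 23.0% fell. The nuclear receptor Esrra, a known activator of respiratory chain genes, fell (log2 fold change -0.46, SE 0.056, adjusted p = 2.05e-06, edgeR), and Pprc1, a coactivator of the PGC-1 family, rose by 0.29. In SNI + G15 against SNI, Ppargc1a, which encodes PGC-1α, was called lower by 0.27 on the log2 scale (adjusted p = 0.0147, edgeR), a call that was lost with the length offset (log2 fold change -0.16, SE 0.072, adjusted p = 0.165, edgeR). Glycolysis was mixed, with 5 of 17 genes higher and 6 lower in SNI. Ldhb, the lactate dehydrogenase form of oxidative tissue, and Pfkm, a phosphofructokinase gene, fell by 0.49 and 0.39, and Pgk1 rose by 0.35. Of 9 tested hypoxia genes, 2 fell in SNI, Vegfa and Egln3, and none rose.

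Cytosolic ribosomal proteins, with a median effective length of 535 bases, are short like the members. Of 81 tested, 13 rose and 2 fell in SNI, or 30 and 1 with the length offset, where 25.2% and 24.0% of all tested genes did. In SNI + G15 against SNI 65 rose and 0 fell, with a median of 0.43, where 8.62% and 7.93% of all tested genes did. With the length offset 46 of the 81 were called higher, with a median of 0.18, where 2 of 91 members and 6.53% of all tested genes were.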

How the data were processed

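Per the study's methods, paired reads of 150 bp were sequenced from DRG RNA; the authors deposited FPKM values per gene, normalized for library size and transcript length, and estimated counts per gene, without normalization and with fractions in some genes. The aligner and annotation are not given in the sources used here. The submitters' processing notes name the mouse build GRCm38 (mm10) although the samples are rat, and the labels' extraction text names another cell type and kit, with 1.3 μg of RNA where the methods give 1.5 μg. The build of the counts is therefore unknown, and the files' own coordinates were not used. Columns named Control 1 to 3 were read as sham 1 to 3, the only group left unnamed in the table. Deposited transcript tables, TPM and group averages were not used.

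After rounding, each pair of groups was compared by edgeR 4.0.16 in R 4.3.3, with TMM scaling and a robust quasi-likelihood fit, over genes reaching 1 FPKM in any library, with Benjamini-Hochberg adjustment. Effective length was the estimated count × 10⁹ over FPKM times the library total, as the median over libraries. The length offset was a lowess curve (span 0.3) of each library's log2 deviation on log2 length. Length-relative values and correlations are descriptions without a test. The SE of an edgeR log2 fold change is the absolute fold change divided by the square root of the F statistic of its test. Alternatives were DESeq2 1.42.0, limma 3.58.1 (limma-trend, log2 of FPKM plus 1 or 0.1), other scalings and filters, all 9 libraries in one fit, the length offset, a replicate block and each library left out. An offset of span 0.1 and one fitted without members and ribosomal genes were added after seeing the data. The scripts were tested on simulated data.

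Named genes are fixed core subunits, isoform pairs, in each comparison the 2 called members of each complex and direction with the smallest adjusted p, called members with a log2 fold change of at least 0.5, and the 3 top genes of other lists; others serve to account for each complex. Members and lists were chosen with earlier results of these data known. RefSeq promoters of GRCr8 were joined by gene ID, with 1 start kept per gene. No protein sequences were used here. Values of some single genes are not reported here. Library totals were nearly equal, so low counts limit only the scarce isoforms, Atp5f1, and Ndufa10l1 in SNI. Counts that were not whole in 5 or more libraries were found in 16 tested members, which are less certain.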

Additional observations from a re-analysis of the deposited data

How the results depend on the processing

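The fall in SNI kept its direction under each alternative run, but the number of members called lower, 52 in the main fit, varied. The lowest count was 37, given by limma with either constant added to FPKM. Fitting all 9 libraries together gave 41, and the remaining settings with every library kept gave 46 to 58. Leaving 1 library out gave 42 to 58 lower, with 0 to 1 called higher. With library totals only or with all genes of at least 1 count, 1 was called higher, and 3 with each of the length offsets. The rise in SNI + G15 against SNI depended on the setting. Of the 22 members called higher, the count became 35 with DESeq2, 7 to 35 when 1 library was left out, and 2, 2 and 3 with the length offset, with span 0.1 and when fitted on non-members, where 1, 2 and 1 were called lower. The median of 0.19 then reversed to -0.033, -0.030 and -0.018. Single genes reversed with the offset too: Cox7b (-0.040), Cox6a1 (-0.026), Ndufa4 (-0.0032) and Cox6b1 (-0.095) against SNI, and Atp5f1e (-0.074) against sham. With the replicate number as a block, 58 members were called lower in SNI against sham, 14 were called higher in SNI + G15 against SNI, and 17 lower and 11 (in place of 6) higher in SNI + G15 against sham. The numbers showed no clear pairing of the libraries. Deviations of same-numbered libraries correlated by -0.12 to 0.12, and not every library correlated best with its own number. With 3 libraries per group, a weak shared batch could not be seen in this way. In SNI + G15 against sham, the 3 offsets gave 53, 53 and 52 lower, 1 higher each, and medians of -0.19, -0.20 and -0.19 in place of 0.0020; leaving 1 library out gave 9 to 27 lower and 4 to 10 higher. The offsets remove by construction what genes of like length share; the cause of the spread between left-out libraries was not tested. Counts under about 100 limit Ndufa4l2, Cox4i2, Cox6b2, Cox7a1, Cox6a2, Cox8b, Cox7b2 and Atp5f1, and Ndufa10l1 in the SNI libraries.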
